A study of Rattus norvegicus with 3 samples.

Results

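The genes described here are 10 genes of osteoclast differentiation and bone resorption, Acp5, Ctsk, Calcr, Atp6v0d2, Dcstamp, Ocstamp, Nfatc1, Itgb3, Oscar and Car2. They were chosen by the measured ratios of these arrays, since Acp5 had the largest mean decrease from the MSC culture to both sarcoma lines among genes detected in all cell types, so their levels are given as a description. On the array, 6 of the 10 genes had a probe whose RefSeq accession is paired with the gene (of 13235 genes named in this way), and Dcstamp, Ocstamp, Nfatc1 and Oscar were not analysed here. Of these 6 genes, 5 were well above background on at least 1 array (of 9966 genes in all), and Calcr was not.

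Expression was measured with Cy3-labeled cRNA on 1 Agilent whole rat genome array per cell type. The osteosarcoma line COS1NR and the malignant fibrous histiocytoma line MFH1NR each derive from 1 tumor induced chemically with 4-HAQO in F344 rats, and the study describes both as carrying a p53 mutation. The MSCs (rMSC) were cells of F344 femur marrow that adhered to plastic, were grown in medium with more serum than the lines, and were not sorted by surface markers. With 1 array per cell type, no difference can be set against a spread between cultures and no test was made. Precision is limited by the number of arrays. Both sarcoma arrays lay on 1 slide and the rMSC array on a different one, and in a comparison with rMSC the slide cannot be told apart from the cells.

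Osteoclasts are large cells with several nuclei that form by fusion of precursors of the monocyte and macrophage lineage. M-CSF keeps these precursors alive through its receptor Csf1r, and RANKL, together with signals of ITAM adaptors, induces the transcription factor NFATc1, which in turn switches on genes of fusion and resorption. The mature cell attaches through the integrin αvβ3, acidifies the bone surface with a proton pump fed by carbonic anhydrase II, and degrades the matrix with cathepsin K and other enzymes.

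The promoters of Acp5 and Ctsk are shown because these members had the lowest mean log2 ratios over both lines, and Ctsk also the largest difference between the lines. Each window runs from 250 bases before to 50 bases after a gene start of RefSeq (GRCr8 build), 5′ to 3′ on the strand of the gene. Capitals mark matches, on either strand, to 4 motifs of factors that act in osteoclasts. The NFAT core was searched as GGAAA, the core of PU.1 as GAGGAA, the AP-1 site as TGANTCA, and an E-box of the kind MITF binds as CANGTG. The cores of NFAT and PU.1 can overlap. RefSeq gave 2 windows for Acp5, at chr8:28945881-28946180 and chr8:28943880-28944179 on the minus strand, and 1 for Ctsk, at chr2:185747298-185747597 on the plus strand.
Acp5, first window: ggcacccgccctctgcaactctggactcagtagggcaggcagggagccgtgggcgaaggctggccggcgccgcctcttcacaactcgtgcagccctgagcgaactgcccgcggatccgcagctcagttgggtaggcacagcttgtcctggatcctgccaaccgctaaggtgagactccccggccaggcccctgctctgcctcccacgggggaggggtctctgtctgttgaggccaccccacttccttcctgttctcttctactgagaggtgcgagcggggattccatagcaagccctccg
Acp5, second window: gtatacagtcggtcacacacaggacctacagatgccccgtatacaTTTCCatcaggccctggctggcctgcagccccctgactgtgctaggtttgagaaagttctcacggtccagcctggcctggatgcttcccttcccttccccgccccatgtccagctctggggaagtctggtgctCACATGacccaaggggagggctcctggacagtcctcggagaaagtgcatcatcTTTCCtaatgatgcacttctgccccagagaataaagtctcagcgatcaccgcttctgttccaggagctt
Ctsk: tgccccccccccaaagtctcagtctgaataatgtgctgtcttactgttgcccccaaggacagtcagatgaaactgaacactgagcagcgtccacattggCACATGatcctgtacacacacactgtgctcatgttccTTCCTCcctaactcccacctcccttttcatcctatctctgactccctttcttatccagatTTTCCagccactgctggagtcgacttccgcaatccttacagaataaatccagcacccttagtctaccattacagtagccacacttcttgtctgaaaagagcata
The first Acp5 window held none of these motifs, while the second held 2 NFAT cores and 1 E-box. The Ctsk window held 1 NFAT core, 1 PU.1 core and 1 E-box, and the AP-1 site was in none of the windows shown. Among all 33469 promoter windows of this length, 62.7% held the NFAT core, 27.6% the PU.1 core, 7.33% the AP-1 site and 44.0% the E-box. A match is a description of the letters and not a bound site.

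Acp5 encodes tartrate-resistant acid phosphatase, the enzyme stained to identify osteoclasts, which macrophages also contain. Its processed intensity was 24581 ± 2458 in rMSC, 101.8 ± 12.1 in COS1NR and 36.5 ± 7.45 in MFH1NR, where the error is the one the scanner software assigns to the spot. The probe was among the brightest in rMSC, above 97.6% of spots, and near the middle of the spots in both lines. Relative to the 75th percentile of each array, Acp5 was 317-fold lower in COS1NR than in rMSC and 1136-fold lower in MFH1NR, which are log2 ratios of -8.31 and -10.15. By rank, 5 genes had a lower ratio than Acp5 in COS1NR among 8267 measured on both arrays, and 1 gene in MFH1NR among 8275. The level in MFH1NR lay close to 30.1, the lowest intensity called well above background there, and with a normexp background correction, chosen after the data were seen, the log2 ratios became -7.44 and -8.38.

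Ctsk encodes cathepsin K, the main collagen-degrading protease of osteoclasts, which fibroblasts can also make. Its intensity was 14774 ± 1477 in rMSC, 47.0 ± 7.59 in COS1NR and 7209 ± 721 in MFH1NR. It was high in rMSC and MFH1NR and near background in COS1NR, where the ratio to rMSC was 413-fold lower (log2 ratio -8.69). In MFH1NR it was only 3.46-fold lower than in rMSC (log2 ratio -1.79). The direct comparison of the lines, which share a slide, put Ctsk 119-fold higher in MFH1NR than in COS1NR, and 2 genes of 8144 measured on both arrays differed by more in that direction. The log2 ratio between the lines lay between 5.64 and 7.26 under the alternatives tried. Normexp gave -7.36 for COS1NR against rMSC, and without scaling the ratio in MFH1NR was -1.04.

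Car2 encodes carbonic anhydrase II, which supplies protons to the pump of the osteoclast and is also present in other cell types, red cells among them. Its intensity was 100.2 ± 10.7 in rMSC, 41.8 ± 7.24 in COS1NR and 2493 ± 249 in MFH1NR. Here MFH1NR was the high array and both others were low, an order unlike that of the 4 other members with a value. The ratio to rMSC was 14.8-fold higher in MFH1NR (log2 ratio 3.88) and 3.15-fold lower in COS1NR (log2 ratio -1.66), and MFH1NR exceeded COS1NR by 46.5-fold. Only 17 genes of 8144 exceeded this difference between the lines. Of all 9966 genes, 99 (0.993%) shared these directions, lower in COS1NR and higher in MFH1NR than in rMSC by 2-fold or more. Normexp gave -1.01 in COS1NR, and the ratio stayed at least 2-fold under every alternative tried. Markers of the erythroid lineage, which makes much carbonic anhydrase II, gave 1 of 4 genes at least 2-fold higher in both lines (Epor). Over all genes, the share was 10.7%. Epor was at 21.1 in rMSC, near the lowest intensity well above background there (17.9). It lost the call with normexp and at 3-fold. The summed level of the 4 genes relative to the 75th percentile was 0.300 in rMSC, 0.327 in COS1NR and 0.418 in MFH1NR. The globin Hbb was not well above background on any array. The part of erythroid cells in the Car2 levels was not tested.

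**Figure D1:**
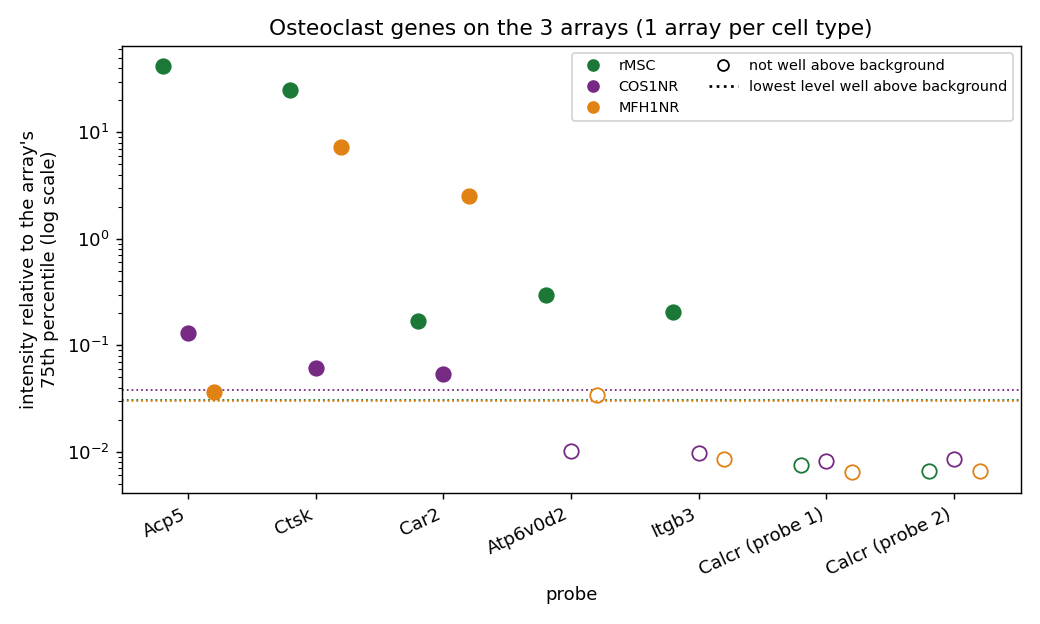
Level of each member probe, as intensity over the 75th percentile of the array (log scale), 1 point per array, with open circles for spots not well above background and dotted lines at the lowest level called well above background on each array (the lines of rMSC and MFH1NR nearly coincide). Acp5 is high in rMSC only, Ctsk in rMSC and MFH1NR, Car2 in MFH1NR, and Calcr on no array.

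Atp6v0d2 and Itgb3 were well above background in rMSC only. Atp6v0d2, the d2 subunit of the proton pump that also takes part in precursor fusion, had an intensity of 175.2 ± 18.0 in rMSC, 7.86 ± 7.83 in COS1NR and 34.0 ± 8.49 in MFH1NR. Both lines were below the background call, so only bounds can be given, of at least 7.83-fold lower for COS1NR and 8.71-fold for MFH1NR. A bound sets the level in rMSC against the higher of the dim spot itself (dim is used here for spots not well above background) and the lowest level well above background on that array. Itgb3, the integrin β3 chain that pairs with αv for attachment to bone and is also found on platelets, had 121.3 ± 13.0 in rMSC, 7.56 ± 7.55 in COS1NR and 8.47 ± 7.47 in MFH1NR. Its decrease was at least 5.43-fold in COS1NR and at least 6.81-fold in MFH1NR. The lines cannot be ordered for these 2 genes, since both were dim in both.

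Calcr, the receptor of calcitonin and a marker of mature osteoclasts, was measured by 2 probes. Their intensities were 4.46 and 3.89 in rMSC, 6.41 and 6.59 in COS1NR, and 6.39 and 6.54 in MFH1NR, each with a software error of about its own size. Neither probe was well above background on any array, so no ratio is given, and the gene was not detectable at this sensitivity.

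Of the 5 members with a value, all 5 were at least 2-fold lower in COS1NR than in rMSC, where 20.0% of 9666 genes were lower, and 0 were higher, where 20.6% of genes were. In MFH1NR, 4 were lower, against 21.6% of 9779 genes, and 1 (Car2) was higher, against 19.3%. Lower in both lines were 4 members (Acp5, Ctsk, Atp6v0d2 and Itgb3), against 12.9% of 9966 genes. The members were chosen with these ratios known and had to be bright on at least 1 array, so nothing is read from these counts, and the comparisons share the rMSC array. Between the lines, MFH1NR was at least 2-fold higher than COS1NR for 2 members (Ctsk and Car2), against 12.5% of 9381 genes, and lower for 1 (Acp5), against 15.1%. The decrease of Acp5 from COS1NR to MFH1NR had a log2 ratio of -1.84 and was under 2-fold after normexp (-0.94). The 5 members with a value had 1 probe and 1 spot each. Over 1890 genes with a second detected probe, probes for the same gene gave log2 ratios that differed by a median of 0.28 for COS1NR to rMSC, 0.31 for MFH1NR to rMSC and 0.15 for MFH1NR to COS1NR. The 90th percentiles of these differences were 0.91, 0.99 and 0.59. In the ratios to rMSC, some probe pairs, such as those of Col1a1 and Col1a2, lay further apart.

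**Figure D2:**
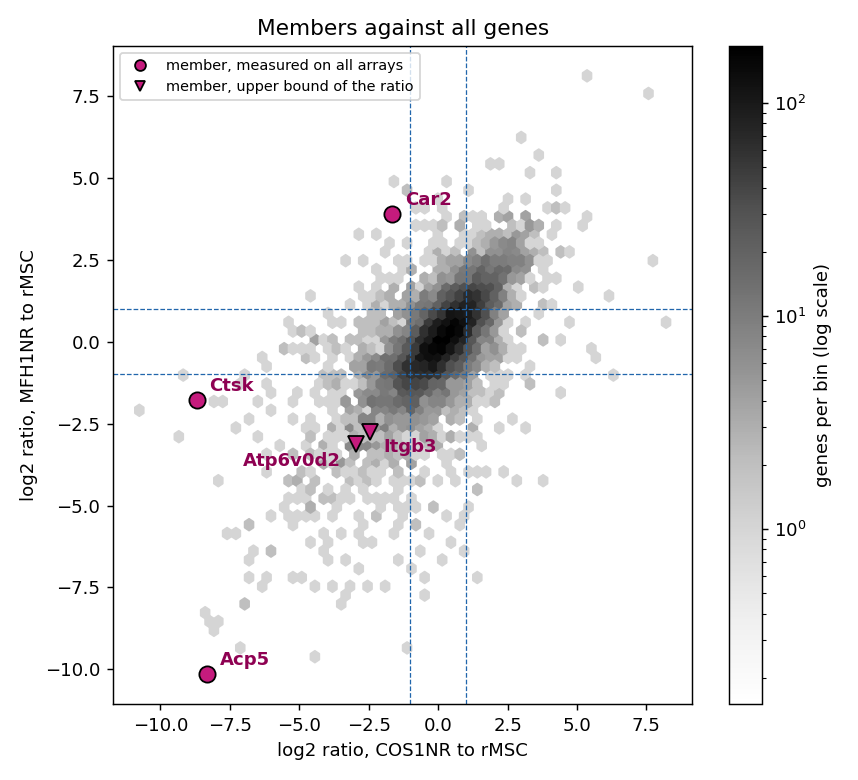
Log2 ratio to rMSC in COS1NR (x axis) and MFH1NR (y axis), with genes well above background on all 3 arrays shown as shaded bins, members as circles, and members with bounds as triangles, and dashed lines at 2-fold. Acp5 lies at -8.31 and -10.15, Ctsk at -8.69 and -1.79, and Car2 at -1.66 and 3.88.

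The genes whose pattern was most like that of Acp5 were sought by the distance between the pairs of log2 ratios to rMSC, among the 7896 genes that were well above background in every cell type. The 5 nearest were C1qtnf5, Cyp1b1, Apoe, Ccl4 and Tyrobp, at distances of 1.42 to 1.79 in log2, with ratios of -7.03 to -8.28 in COS1NR and of -8.36 to -9.43 in MFH1NR. The nearest, C1qtnf5, encodes a secreted protein of the C1q and TNF family, and the next, Cyp1b1, a cytochrome P450. The other 3 are genes that macrophages express, the lipid carrier Apoe, the chemokine Ccl4 and the ITAM adaptor Tyrobp (DAP12). Genes not well above background in a line, such as the macrophage marker Lyz2, could not enter this search. The same measure, used for Ctsk after its values were seen, gave Srpx2, Col1a2, Rcn3, Npdc1 and Igsf10. Among these, Col1a2, a chain of type I collagen, had log2 ratios of -9.09 in COS1NR and -0.98 in MFH1NR. Col1a2 had -12.57 and -4.56 by its other probe, so its likeness to Ctsk depended on the probe. For Car2 the measure gave Tuba4a, Cst6, Bmp2, Mmp3 and Akr1c13, with ratios of -2.09 to -0.79 in COS1NR and of 3.10 to 4.52 in MFH1NR. These likenesses rest on 3 arrays and describe the levels alone.

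Upstream of the members, 3 of 4 ligands and receptors of the RANKL and M-CSF pathways with a value were lower in both lines, against 12.9% of all genes. Of these, Tnfsf11 and Tnfrsf11b were counted through bounds, being well above background in rMSC alone. Csf1r, the M-CSF receptor of macrophages and osteoclast precursors, had intensities of 1238 in rMSC, 51.7 in COS1NR and 48.9 in MFH1NR, and was 31.4-fold and 42.7-fold lower. Tnfsf11, which encodes RANKL, had 64.7 in rMSC and was not well above background in either line, so COS1NR was lower by at least 2.89-fold, and MFH1NR by at least 3.63-fold. Its decoy receptor osteoprotegerin (Tnfrsf11b) had 57.9 in rMSC and bounds of 2.59-fold and 3.25-fold, and it was not at least 2-fold lower in both lines without scaling. Csf1, the gene of M-CSF, was bright on every array, and its selected probe had log2 ratios of -1.15 and -0.85 while the second had -1.85 and -1.70. The RANKL receptor gene Tnfrsf11a was not analysed here, since no probe was paired with it.

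The ITAM adaptors, costimulatory receptors and their kinases had 8 of 12 genes at least 2-fold lower in both lines and 0 higher. Over all genes, 12.9% were lower and 10.7% higher in both. All 12 were well above background in rMSC, and 8 in each line. Their median log2 ratio was -2.02 in COS1NR and -3.66 in MFH1NR, beside 0.11 and 0.01 over all genes. Tyrobp had the lowest ratios, with intensities of 11921 in rMSC, 50.3 in COS1NR and 61.3 in MFH1NR, which gave 312-fold and 328-fold lower levels. Its partner receptor Trem2 was 25.4-fold lower in COS1NR and 36.4-fold lower in MFH1NR, and the adaptor Fcer1g 159-fold and 58.3-fold lower. Lcp2 was at least 34.6-fold and 43.6-fold lower, and the kinases Syk and Btk were not well above background in either line. Lat2, an adaptor of the same pathway, had a log2 ratio of at most -1.27 in COS1NR and of -0.95 in MFH1NR. In contrast, the kinase gene Tec and the phospholipase gene Plcg2 parted between the lines. Tec had log2 ratios to rMSC of 1.99 in COS1NR and -1.84 in MFH1NR, and Plcg2 had 2.13 and at most -3.54. Src, the kinase needed for the ruffled border, had -1.66 and -0.57.

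Of the signaling and transcription factors of the lineage, 6 of 22 genes were at least 2-fold lower in both lines and 0 were higher. The shares over all genes were 12.9% and 10.7%. The median log2 ratios of the list were -0.19 and -0.74. Without scaling 3 were lower and 2 higher, and the medians were 0.31 and -0.06. Spi1, which encodes the myeloid factor PU.1, had an intensity of 391.5 in rMSC and was not well above background in the lines, at least 17.5-fold and 22.0-fold lower. The AP-1 gene Junb was 7.33-fold lower in COS1NR and 17.3-fold lower in MFH1NR. Batf was 3.74-fold lower in MFH1NR and at least 24.7-fold lower in COS1NR, where it was not well above background. The 3 others, Rela, Nfkb2 and Myc, had log2 ratios between -1.61 and -1.10, and none of the 3 was at least 2-fold lower in both lines without scaling. Traf6, the adaptor behind the RANKL receptor, had log2 ratios of -0.30 and 0.24, and Fos -0.51 and -2.12. Genes with the largest mean increases were Fosl2 (0.83 and 2.16), Id2 (0.07 and 1.65) and Map2k6 (1.82 and -0.38). Mitf was not analysed here.

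**Figure D3:**
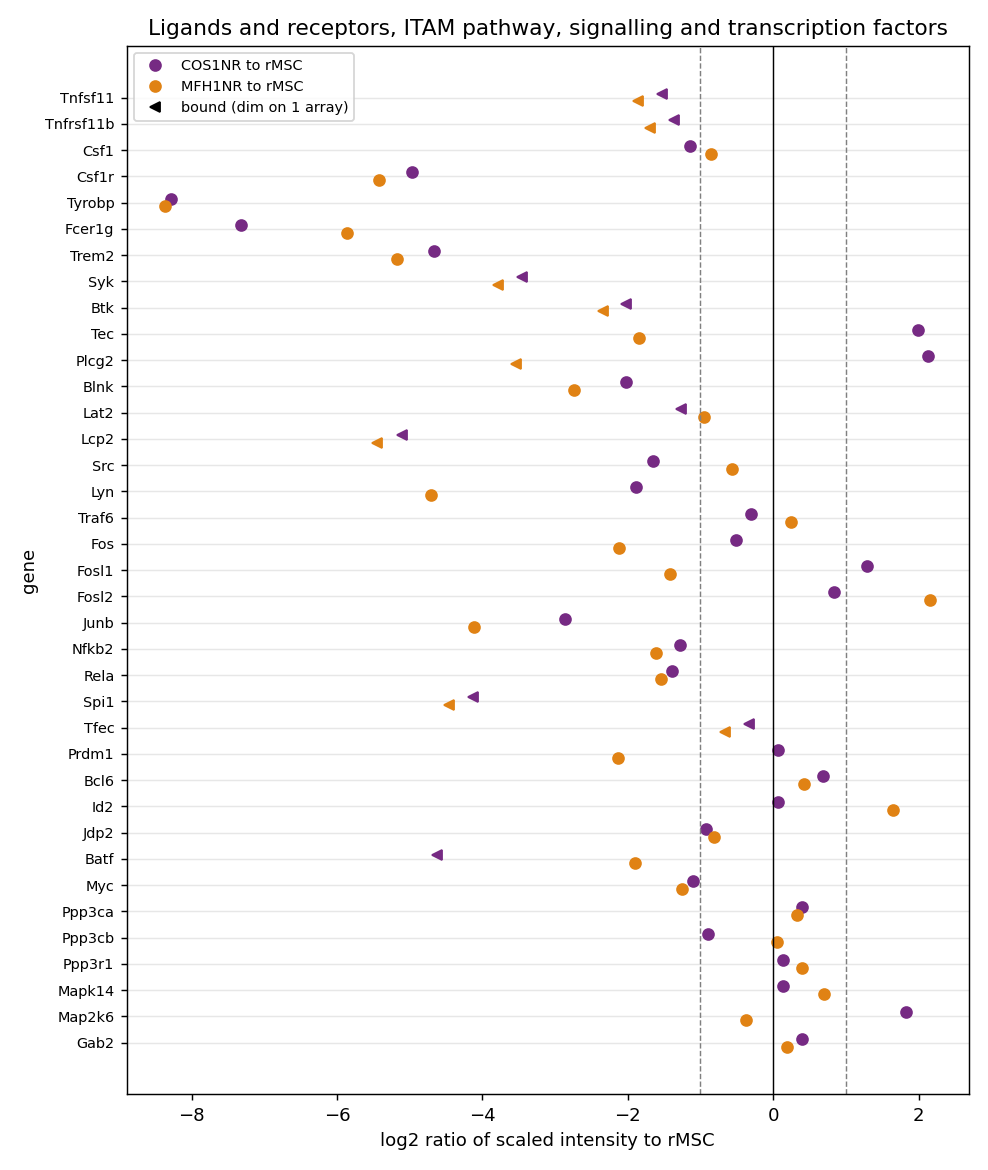
Log2 ratio to rMSC in COS1NR and MFH1NR (x axis) for the genes shown of the ligands and receptors (top), the ITAM pathway (middle) and the signaling and transcription factors (bottom), with triangles for bounds and dashed lines at 2-fold. Tyrobp lies farthest to the left, at -8.28 and -8.36, and Tec and Plcg2 lie on opposite sides of 0 in the lines.

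Outside the members, genes of acid secretion were not lower together as Atp6v0d2 was. Of 22 genes of the vacuolar proton pump, the chloride channel and their partners, 0 were at least 2-fold lower in both lines, and 1 (Atp6v1a) was higher. Over all genes, the shares were 12.9% and 10.7%. The medians of the list were 0.22 and -0.23, and without scaling they were 0.62 and 0.53. The number higher in both lines was 3 without scaling, 2 with median scaling and 0 with the mean of all probes, while 0 genes were lower in both under each of these. Atp6v0d1, the widely expressed counterpart of Atp6v0d2, had intensities of 7310 in rMSC, 7060 in COS1NR and 4914 in MFH1NR, with log2 ratios of -0.44 and -1.33. Atp6v0e1, a small subunit of the same membrane part of the pump, had -0.70 and -1.49. The largest mean increase was that of Atp6v1h, a regulatory subunit, with 0.47 and 1.92, and Rab7a, a GTPase of late endosomes, had 0.86 and 1.14. Atp6v1a had log2 ratios of 1.07 and 1.21 by its brightest probe, but 0.55 and 0.68, and 0.42 and 0.93, by its other probes. The chloride channel gene Clcn7 had -0.07 and -0.16. Its partner Ostm1 had 0.54 in COS1NR and -1.85 in MFH1NR, and Snx10, which is needed for acid secretion by osteoclasts, had -0.16 and -2.67, so that these 2 genes were lower in MFH1NR only. Tcirg1, the pump subunit of the ruffled border, was not analysed here.

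**Figure D4:**
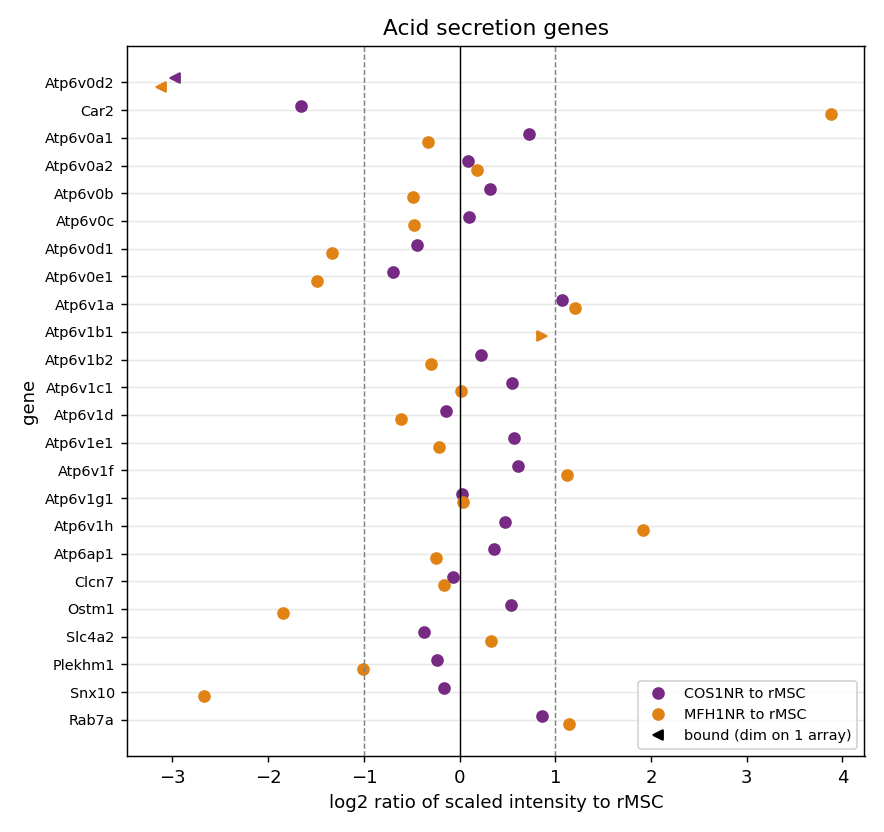
Log2 ratio to rMSC in COS1NR and MFH1NR (x axis) for Atp6v0d2, Car2 and the 22 acid secretion genes, with triangles for bounds and dashed lines at 2-fold. The bounds of Atp6v0d2 lie at -2.97 and -3.12, and Car2 lies at -1.66 and 3.88, while no other gene is at least 2-fold lower in both lines.

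Among 14 genes of matrix proteases, lysosomal hydrolases and their inhibitors, 4 were at least 2-fold lower in both lines and 0 were higher. Over all genes, the shares were 12.9% and 10.7%. The median log2 ratios of the list were -0.72 and -1.13, and without scaling they were -0.33 and -0.38. Ctss, a cathepsin of antigen-presenting cells, had 3073 in rMSC and was lower by at least 137-fold in COS1NR and 172-fold in MFH1NR. Collagenase 3 (Mmp13) was 80.8-fold and 172-fold lower. The others, Ctsb and the cysteine protease inhibitor gene Cst3, had ratios between -1.15 and -1.07, which were under 2-fold in both without scaling. Mmp9, the gelatinase of osteoclasts, was at 2730 in rMSC, 1892 in COS1NR and 102.4 in MFH1NR, with log2 ratios of -0.92 and -5.49. Mmp14, a membrane collagenase of stromal cells and osteoclasts, was at 41332 in rMSC, 1208 in COS1NR and 55144 in MFH1NR. Its log2 ratios were -5.49 in COS1NR and -0.34 in MFH1NR, so COS1NR was the lowest array, as for Ctsk. Its COS1NR level lay above the 75th percentile of that array (774), while Ctsk was near background there. Counted in each line alone, 5 of the 14 genes were at least 2-fold lower in COS1NR and 9 in MFH1NR, but in MFH1NR only 5 were with median scaling, 4 with quantile normalization and 3 without scaling. The 9 included the lysosomal genes Lamp1 (-0.92 in COS1NR and -1.09 in MFH1NR), Ctsd (-0.31 and -1.26), Ctsl (0.14 and -1.20) and Ctsz (-0.31 and -1.33), none of which was 2-fold lower without scaling. The highest mean ratios were those of Lamp2 (0.14 and -0.02), the inhibitor gene Cstb (-0.05 and 0.09) and Tpp1 (0.16 and -0.24).

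Of 13 attachment, podosome and fusion genes, 4 were at least 2-fold lower in both lines and 0 were higher. Over all genes, the shares were 12.9% and 10.7%. The medians of the list were -0.76 and -1.01, and without scaling they were -0.37 and -0.26. The tetraspanin gene Cd81 was 304-fold lower in MFH1NR and at least 492-fold lower in COS1NR. The kinase gene Ptk2b, which acts with Src at podosomes, was at least 18.9-fold and 23.7-fold lower. Ibsp, a bone matrix protein bound by αvβ3, was 14.1-fold and 172-fold lower. Spp1 (osteopontin), another ligand of αvβ3, had 36180 in rMSC, 22285 in COS1NR and 149222 in MFH1NR, with log2 ratios of -1.09 and 1.29. Cd47 had 0.42 and 0.28 by its selected probe. The other Cd47 probe gave -0.97 and -0.89, the opposite direction. Sirpa, the receptor gene of Cd47, had -0.76 and 0.06. The fourth gene lower in both lines, Vcl (vinculin), had -2.50 and -1.72 by its selected probe, which lost the call without scaling. Its other probes gave -2.67 and -1.94, and -3.67 and -2.84. Itgav, the partner of Itgb3, was not analysed here.

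Markers of macrophages were lower in both lines, as were 4 of the 5 members with a value, while Car2 was higher in MFH1NR. All 15 of the 15 macrophage and monocyte markers with a value were at least 2-fold lower in both lines, against 12.9% of all genes. All were well above background in rMSC, but only 6 in COS1NR and 5 in MFH1NR. Most thus entered the count through rMSC alone and could not come out higher, so nothing is read from this count. Their summed level relative to the 75th percentile was 177.9 in rMSC, 9.63 in COS1NR and 4.66 in MFH1NR. Lyz2, the macrophage lysozyme, was lower by at least 1444-fold in COS1NR and 1813-fold in MFH1NR, while Cd68 was 2.98-fold and 12.6-fold lower and remained at 3135 and 955.8. Cd14 had log2 ratios of -3.31 and -3.80, and Itgam at most -3.91 and -4.24. Without scaling Cd163 lost the call. Marco, Cx3cr1 and Mpeg1 were not well above background on any array. Of the markers of all leukocytes, 8 of 8 were lower in both lines. These 8 were well above background in rMSC, 5 of them in COS1NR and 3 in MFH1NR, so the same limit holds. Among them, Ptprc was at 57.5 in rMSC by its selected probe and, with Arhgdib, lost the call without scaling. Of 4 T and B cell markers with a value, 1 (Cd8a) was lower in both lines. Cd3d was well above background on every array, at 452.1 in rMSC, 892.8 in COS1NR and 626.8 in MFH1NR, while Cd3e was so on none. Of 4 neutrophil markers with a value, 0 were lower in both lines. Camp was at 159.6 in rMSC and 218.6 in COS1NR and dim in MFH1NR. S100a8 and Csf3r were well above background in COS1NR alone, at 292.2 and 132.2. Ngp was so in MFH1NR alone, at 63.4, and Elane on no array. The part of these cells in the results on the members was not tested, and a smaller number of such cells cannot be told apart from less RNA per cell.

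Stromal markers were also lower in the lines. Of 13 stroma and fibroblast markers, 9 were at least 2-fold lower in both lines, against 12.9% of all genes, and 0 were higher in either line. Their summed level was 1072 in rMSC, 30.8 in COS1NR and 179.2 in MFH1NR. Thy1 was at 2781 in rMSC and 2632 in MFH1NR but not well above background in COS1NR, so it was high in the same cell types as Ctsk. Of 8 osteoblast markers, 2 (Bglap and Ibsp) were lower in both, and the osteoblast factor Sp7 was well above background in MFH1NR alone, at 108.1. Col1a1 had log2 ratios of -0.33 and -0.38 by its selected probe but -3.69 and -3.35 by a second one, and Alpl had -1.89 and -0.84. For endothelial cells, 3 of 4 markers were lower in both lines, Cdh5 was at 26.0 in rMSC and 48.3 in COS1NR and dim in MFH1NR, and Pecam1 was dim on all arrays.

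**Figure D5:**
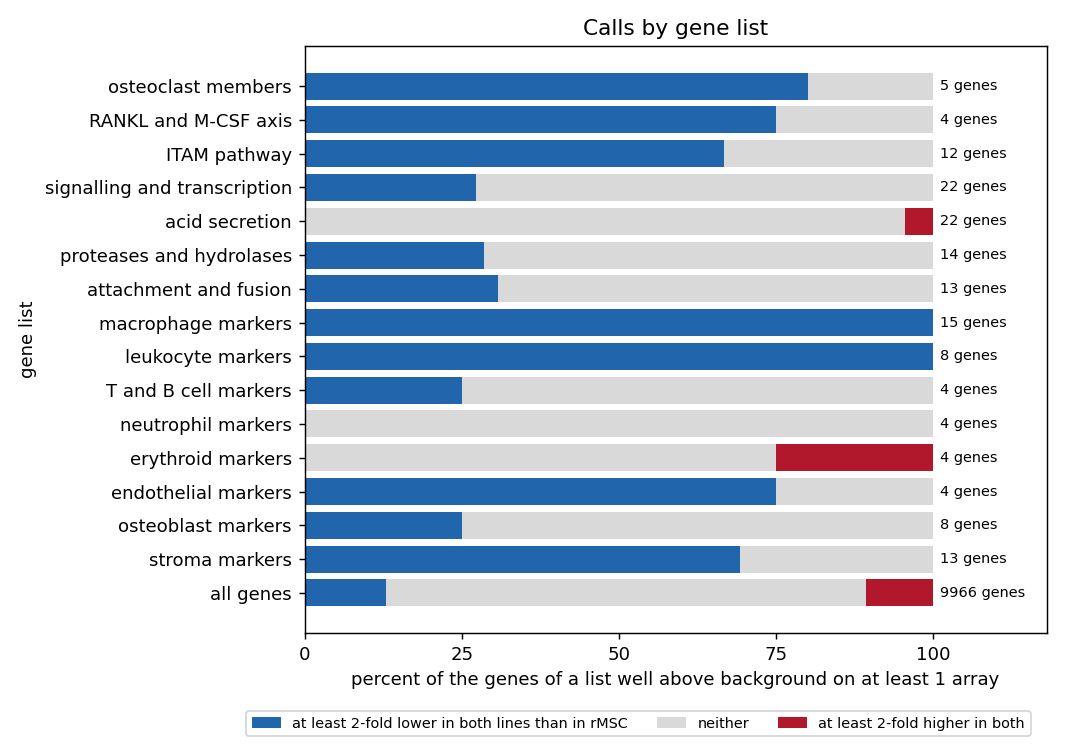
Percent of the genes of each list (well above background on at least 1 array, number at the right) that were at least 2-fold lower in both sarcoma lines than in rMSC, at least 2-fold higher in both, or neither. Over all 9966 genes 12.9% were lower and 10.7% higher in both, while the macrophage list has 15 of 15 lower and the acid secretion list 0 of 22. A gene well above background in rMSC alone could not count as higher.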

How the data were processed

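RNA of COS1NR, MFH1NR and rMSC was hybridized to 1 array each. The authors made the deposited intensities with Agilent Feature Extraction (10.5.1.1 per the file headers, 9.1 in the processing notes), which subtracted background and detrended each array; the array design was annotated on rn4. The deposited series table held the same intensities on 3 of 3 arrays. For RNA isolation and labeling, the labels and the methods name different kits.

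Control spots and outlier spots (187 to 217 per array) were left out, and log2 intensities were taken relative to the 75th percentile of each array (589, 774 and 994 in rMSC, COS1NR and MFH1NR). Of the spots that are not controls, 56.6% to 59.7% were well above background and 0 were saturated. Probes were named by NM accessions through RefSeq (GRCr8), and a gene was read from its probe of highest mean log2 intensity. A difference of 2-fold was the threshold. Named are all members, the genes of each pathway list with the 3 largest mean decreases and increases, core pathway genes and defining markers, and the 5 genes nearest to Acp5. Some genes of the lists are not reported here. The members and lists were chosen with earlier results of these data known. Counting was tested on simulated data. Python 3.11.15, numpy 2.4.6, pandas 2.3.3 and matplotlib 3.10.9 were used, with limma 3.58.1 in R 4.3.3 for normexp (offset 50) and quantile normalization. Alternatives are given at the end.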

Additional observations from a re-analysis of the deposited data

Results flagged for a closer look

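Car2 moved in opposite directions in the sarcoma lines, with a log2 ratio to rMSC of -1.66 in COS1NR and 3.88 in MFH1NR, from 1 array each. The difference was not tested against a spread between cultures. Under the alternatives tried, the ratio lay between -1.66 and -1.01 in COS1NR and between 3.26 and 4.64 in MFH1NR.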

How the results depend on the processing

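No paired analysis was possible because each cell type had 1 array. The log2 ratios of Acp5, Ctsk, Car2, Atp6v0d2 and Itgb3 to rMSC kept their direction and stayed at least 2-fold under every alternative tried that gave a value, and the ratios of Ctsk and Car2 between the lines did so too. The normexp correction on gMeanSignal was not run, since the files used hold the median signal instead, which was used after the data were seen. With it, 0 members were lower in MFH1NR than in COS1NR, in place of 1 (Acp5). When genes had to be well above background on every array, the lower members were 3 in COS1NR, 2 in MFH1NR and 2 in both, and the lower genes in both lines 5 for the ITAM list, 1 for the RANKL and M-CSF list, 2 for attachment and fusion, and 692 over all genes (1287 otherwise), since this filter takes out genes dim in the lines. It left 5 macrophage, 2 leukocyte and 1 endothelial marker, each lower in both lines (15, 8 and 3 otherwise). Without scaling, the median of all genes moved to 0.52 in COS1NR and 0.79 in MFH1NR, from 0.11 and 0.01, the genes lower in both lines became 846 and the higher 2274 (1071 with scaling), and the lists gave 3 higher for acid secretion, 2 lower for proteases, and 3 lower and 2 higher for signaling and transcription. Of the protease list, 2 genes were lower also with median scaling and with quantile normalization, and median scaling gave 2 higher in acid secretion. With the mean of all probes, 0 acid secretion genes were higher. At 3-fold, 831 genes were lower and 453 higher in both lines, with 1 lower in the RANKL and M-CSF list, 2 among proteases, 3 in signaling and transcription, and 0 higher in acid secretion. Dim members are limited by background, which leaves only bounds for Atp6v0d2 and Itgb3.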
